A study of Mus musculus with 6 samples.

Results

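Complement is a cascade of plasma and cell-surface proteins in which successive proteases cleave and activate the next component. The classical and lectin pathways act through C4 and C2, the alternative pathway through factor B and factor D, and all of them converge on cleavage of C3. Membrane and soluble regulators keep the cascade from acting on host cells. The liver makes most circulating complement, and kidney cells transcribe a subset of the genes themselves. The 8 genes described here are components and regulators chosen by name, out of 24346 gene symbols in the deposited table: C3, C4b, Cfb, Cfd, Cfi, Serping1, Cd55 and Cd59a. The subunits of C1q were left out of the choice and are given only as other genes of the pathway.

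Kidneys of C57BL/6 mice were profiled in 2 groups of 3 libraries, IVCC and Sham, named in the labels for the surgery. The series title names renal congestion, and the comparison asks how transcript levels in the kidney differ after IVCC. The sources used here give neither the meaning of IVCC nor the time after surgery, and neither the age nor the sex of the animals. Nothing says that the libraries came from separate mice, so each p-value is set against a spread between libraries that may be technical only. Levels are in FPKM (fragments per kilobase, scaled to all mapped fragments), which allows for transcript length, so that levels of different genes can be compared. In bulk tissue, fewer cells of a type and less RNA per cell cannot be told apart.

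FPKM give no read totals, but the smallest values step by about 1 read. From those steps, the IVCC libraries held nominally 8230000 to 9160000 reads and the Sham libraries 6130000 to 7200000. Every IVCC library was thus nominally deeper than every Sham library. All 8 kidney marker genes passed the filter on low values, and the proximal tubule transporter gene Slc34a1 averaged 2320 FPKM over the 6 libraries. Genes with long transcripts moved together between libraries. For the 25% of tested genes with the longest transcripts (median length of at least 3821.5 bases), the median log2 deviation from the gene mean was 0.06, 0.18 and -0.08 across the IVCC libraries. Across the Sham libraries it was -0.02, 0.05 and -0.19. C3 and C4b belong to this 25%, and the other 6 members do not.

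No member was shown to differ between the groups beyond the spread between libraries. Of the 8, 7 had a mean of at least 1 FPKM and were tested with limma on log2(FPKM + 1), among 12090 genes. The exception was Cfd, which was listed at 0 in all 6 libraries. Of the 7, 0 passed at an adjusted p under 0.05, against 0% of all genes tested, and 0 had an unadjusted p under 0.05, against 3.56%. The members' smallest adjusted p was 0.924 and the smallest of all genes was 0.790. Only C3 had its 3 IVCC values all above its 3 Sham values, beside 4.09% of all genes tested with IVCC higher and 8.31% separated in either direction. The fitted log2 fold change was above 0 for 5 members and below 0 for 2. Its median was 0.11, beside -0.01 over all genes tested, of which 48.4% were higher.

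The levels of the members spanned a wide range, with factor B far above the rest. Cfb averaged 240.6 FPKM over the 6 libraries, above 95.6% of the genes tested. Cd59a followed at 27.6, Serping1 at 23.7, Cd55 at 7.85 and Cfi at 3.67 FPKM. C4b at 1.29 and C3 at 1.27 FPKM lay near the filter, above only 3.52% and 3.36% of the genes tested. Cfb, Cd59a, Serping1, Cd55, Cfi and C4b kept this order in every library. Cd59a and Serping1 are close, at a ratio of 1.02 to 1.38 within a library. C4b and C3 have no order, since C4b was the higher in 3 of 6 libraries. Within a library Cfb was 134 to 200 times C3 in IVCC and 183 to 277 times C3 in Sham.

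**Figure D1:**
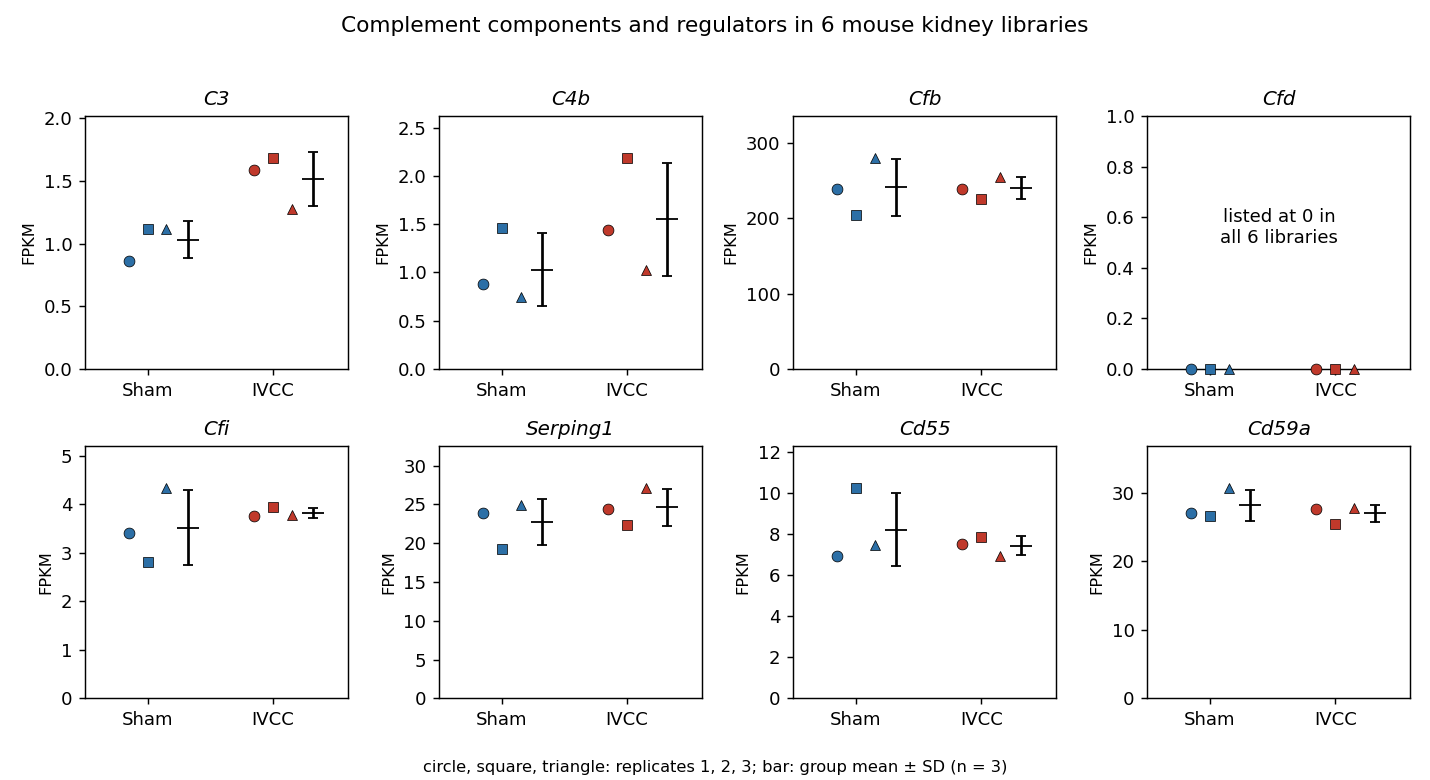
FPKM (vertical axis, linear from 0) of the 8 members in Sham (blue) and IVCC (red) libraries; circles, squares and triangles are replicates 1, 2 and 3, and bars are group means ± SD (n = 3). The groups overlap for every member with values except C3, and Cfd is listed at 0 throughout.

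C3 is the central component, cleaved to an opsonin and a small anaphylatoxin. The gene lies on chromosome 17 (57203970 to 57228136, minus strand, GRCm38). It was listed at 1.59, 1.68 and 1.27 FPKM in IVCC replicates 1 to 3. In Sham replicates 1 to 3 it was listed at 0.862, 1.12 and 1.12 FPKM. All 3 IVCC libraries lay above all 3 Sham libraries, the nearest pair being 1.27 and 1.12 FPKM. The group means were 1.515 ± 0.214 and 1.03 ± 0.147 FPKM (SD, n = 3 each). In limma the log2 fold change was 0.31 (standard error, SE, 0.15) with a 95% interval of -0.04 to 0.66 (adjusted p = 0.924, unadjusted p = 0.0771). The log2(FPKM + 1) scale understates the change of a gene at this level, and the ratio of the mean FPKM was 1.47.

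These C3 values rest on few reads, nominally 58 to 71 per library in IVCC and 30 to 40 in Sham. The groups overlapped for C3 when the values were scaled to TPM, after quantile normalization, and once transcript length and GC content had been corrected for. The corrected log2 fold change was 0.21 (limma adjusted p = 0.907).

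C4b encodes the fourth component, which joins C2 in the convertase of the classical and lectin pathways. It lies in the major histocompatibility complex on chromosome 17 (34728380 to 34743882, minus strand), beside its duplicate C4a (34809092 to 34823464, minus strand). In GENCODE M21 C4a has no coding transcript. The aligned coding bases of C4b are 96.1% identical to C4a, and 24.2% of windows of 75 bases, the read length, are the same in both. One such window with the median of 2 differences, from the GENCODE M21 transcripts, shows how little separates reads of the 2 genes; capitals mark the differing bases.
C4b: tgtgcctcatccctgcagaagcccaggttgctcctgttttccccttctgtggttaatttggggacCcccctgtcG
C4a: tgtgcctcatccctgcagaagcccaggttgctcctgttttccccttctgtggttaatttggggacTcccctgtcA
The value of either gene depends on how the authors' software divided the shared reads, so both are uncertain.

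In IVCC replicates 1 to 3 C4b was listed at 1.44, 2.18 and 1.02 FPKM. The Sham values were 0.875, 1.46 and 0.750 FPKM. In both groups replicate 2 was the highest and replicate 3 the lowest, and Sham replicate 2 lay above IVCC replicates 1 and 3, so the groups overlapped. The means were 1.55 ± 0.587 and 1.03 ± 0.380 FPKM (SD, n = 3 each). The spread within groups was the widest of the members, with a coefficient of variation of 37.9% in IVCC and 36.9% in Sham. Its log2 fold change was 0.32, SE 0.22 (limma adjusted p = 0.924, 95% interval -0.19 to 0.84). It was 0.15 without IVCC replicate 2. Without Sham replicate 2 the groups of C4b did not overlap, as 22% of all genes were then separated in either direction. The C4a values were 0.211, 0.181 and 0.105 FPKM in IVCC. In Sham they were 0.275, 0.347 and 0.189 FPKM. Those values stand for nominally 5 to 13 reads per library. C4b was 6.83 to 12.1 times C4a in IVCC and 3.18 to 4.21 times C4a in Sham, a ratio that was looked at after both genes' values were seen and was not tested.

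**Figure D2:**
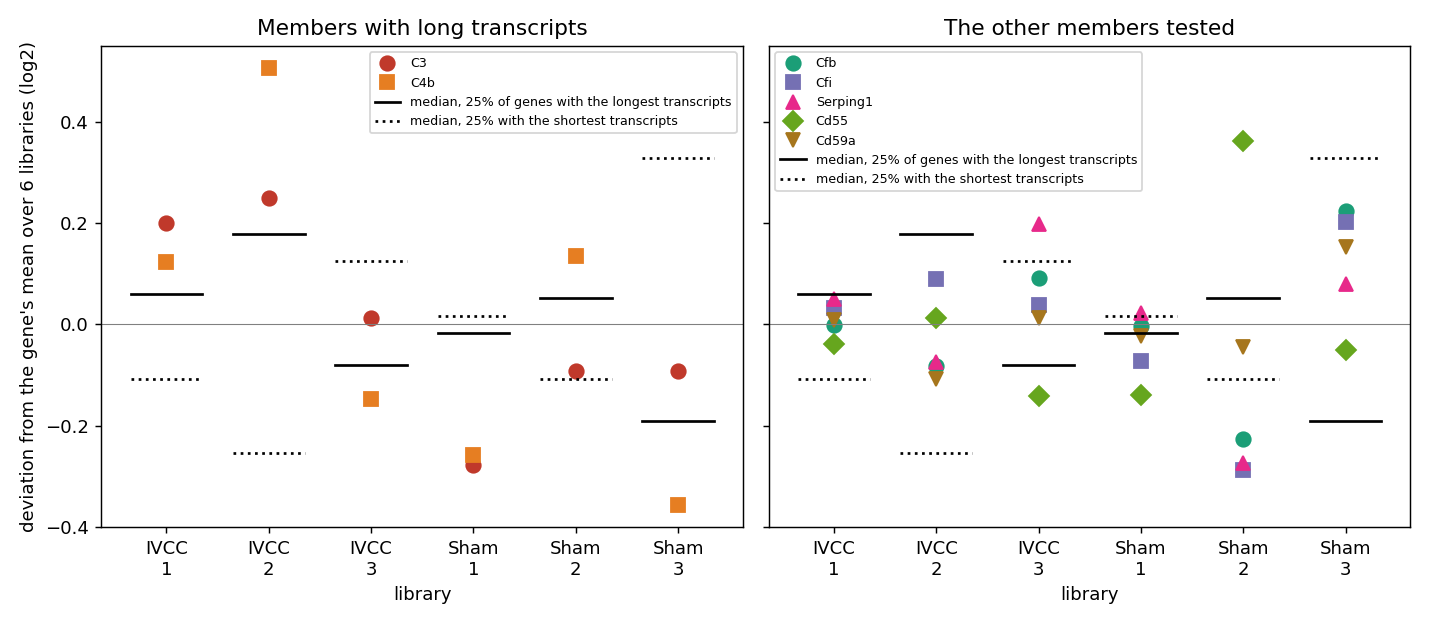
Log2 deviation of each tested member from its own mean over the 6 libraries (vertical axis) by library, with C3 and C4b on the left and the 5 other members on the right. Horizontal lines are the medians of the 25% of genes with the longest (solid) and shortest (dotted) transcripts; C4b is highest in IVCC replicate 2, where the solid line is also highest, at 0.18.

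Cfb encodes factor B, the serine protease of the alternative pathway convertase. It lies on chromosome 17 (34856374 to 34862518, minus strand), next to C2, the related protease of the classical pathway. Levels in IVCC replicates 1 to 3 were 239.4, 226.1 and 255.1 FPKM. In Sham they were 238.9, 204.5 and 279.8 FPKM. The lowest and the highest library were both Sham, and the 3 IVCC values lay between them. The means were 240.2 ± 14.5 and 241.1 ± 37.7 FPKM (SD, n = 3 each). The log2 fold change was 0.005, SE 0.15, with a 95% interval of -0.35 to 0.36 (limma adjusted p = 0.996). On this scale the interval allows a fold between 0.786 and 1.28. After quantile normalization Cfb was the only member whose groups did not overlap, with IVCC higher, as 8.75% of all genes were then separated in either direction. Its log2 fold change was then 0.16 (limma unadjusted p = 0.0798, adjusted p = 0.956). Of the 75-base windows of the Cfb transcript, 81.6% also occur in Gm20547, a gene model on the same strand whose exons overlap those of Cfb. Whether the authors' annotation held that model, and how shared reads were then divided, is not given. The listed level of Cfb is uncertain to that extent.

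Cfd encodes factor D, also called adipsin, the protease that cleaves factor B and is known as a product of fat cells. It lies on chromosome 10 (79890853 to 79892655, plus strand). It was listed at 0 in all 6 libraries, where 1 read would nominally stand for 0.151 to 0.226 FPKM. A listed 0 can be a failed estimate, so no level or fold is given. Of 6 adipocyte markers, Adipoq, Plin1, Lep and Retn were also listed at 0 in all 6 libraries and Cidec was at most 0.145 FPKM. The remaining one, Fabp4, which endothelium also expresses, averaged 103 FPKM and carried nearly the whole sum of the list (74.8 to 139 FPKM in IVCC and 85.9 to 140 in Sham).

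Among the soluble regulators, Cfi encodes factor I, the protease that inactivates C3b and C4b with the help of cofactors. It lies on chromosome 3 (129835884 to 129875332, plus strand). In IVCC it was listed at 3.75, 3.94 and 3.77 FPKM. Sham values were 3.42, 2.81 and 4.34 FPKM. The IVCC libraries sat within a narrow band inside the range of the Sham libraries, with coefficients of variation of 2.74% and 21.9%. Its log2 fold change was 0.11, SE 0.15 (limma adjusted p = 0.927, 95% interval -0.25 to 0.46). The 3 IVCC values were all higher than the Sham values once Sham replicate 3 was left out. In that setting 15.2% of all genes were separated in either direction. The fitted direction of Cfi turned without Sham replicate 2.

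Serping1 encodes the C1 inhibitor, a serpin that blocks the proteases C1r, C1s and the lectin pathway's MASPs, and also kallikrein and factor XII of the contact system. It lies on chromosome 2 (84765387 to 84775444, minus strand). Levels were 24.4, 22.3 and 27.1 FPKM in IVCC. They were 23.9, 19.3 and 24.9 FPKM in Sham. In each group replicate 3 was the highest and replicate 2 the lowest, and the groups overlapped. The means were 24.6 ± 2.42 and 22.7 ± 2.99 FPKM (SD, n = 3 each), and the log2 fold change was 0.11, SE 0.14 (limma adjusted p = 0.924). After the length and GC correction the groups no longer overlapped, as 10.9% of all genes were then separated in either direction. The log2 fold change was then 0.21 with an unadjusted p of 0.0357 and an adjusted p of 0.836 in limma. In that setting 5.65% of all genes had an unadjusted p under 0.05. Without Sham replicate 2 the log2 fold change was 0.007.

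Cd55 encodes decay-accelerating factor, a membrane protein that breaks up the C3 and C5 convertases. It lies on chromosome 1 (130439027 to 130462744, minus strand) next to its duplicate Cd55b (130388537 to 130423009, minus strand). Their aligned coding bases are 91.4% identical, with 24.7% of 75-base windows the same in both. The window below has the median of 3 differences, in capitals.
Cd55: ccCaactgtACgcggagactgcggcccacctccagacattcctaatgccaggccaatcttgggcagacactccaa
Cd55b: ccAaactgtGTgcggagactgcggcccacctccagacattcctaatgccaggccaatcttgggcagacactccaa
Only 9.39% of windows over the whole Cd55 transcript, untranslated parts included, also occur in Cd55b. Cd55b was listed at 0 in 4 of the 6 libraries and at most at 0.247 FPKM, in Sham replicate 2.

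Cd55 itself was listed at 7.54, 7.86 and 6.96 FPKM in IVCC. The Sham values were 6.97, 10.3 and 7.48 FPKM. Sham replicate 2 stood above the other 5 libraries, which lay between 6.96 and 7.86 FPKM. The means were 7.45 ± 0.454 and 8.24 ± 1.78 FPKM (SD, n = 3 each), and the log2 fold change was -0.11, SE 0.15 (limma adjusted p = 0.925, 95% interval -0.47 to 0.24). Without Sham replicate 2 the direction turned, to 0.04, and it also turned under TPM scaling.

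Cd59a encodes the membrane protein that stops C9 from completing the membrane attack complex. It lies on chromosome 2 (104095801 to 104115354, plus strand), and its duplicate Cd59b just before it (104069849 to 104091187, plus strand). These paralogs are further apart than the other pairs, with 85.0% of their aligned coding bases identical. None of the 135 aligned windows of 75 coding bases is the same in both. Over the whole Cd59a transcript, untranslated parts included, 1.73% of windows also occur in Cd59b. A window with the median of 15 differences, in capitals, shows how far reads of this pair differ.
Cd59a: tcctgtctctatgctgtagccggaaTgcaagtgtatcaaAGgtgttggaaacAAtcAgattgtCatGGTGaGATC
Cd59b: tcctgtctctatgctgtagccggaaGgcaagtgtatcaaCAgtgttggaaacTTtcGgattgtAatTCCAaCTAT

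Levels of Cd59a were 27.7, 25.5 and 27.8 FPKM in IVCC. They were 27.1, 26.7 and 30.7 FPKM in Sham. The groups overlapped, and the highest library was only 1.21 times the lowest, the narrowest range of the members. The means were 27.0 ± 1.30 and 28.2 ± 2.23 FPKM (SD, n = 3 each). The log2 fold change was -0.06, SE 0.11, with a 95% interval of -0.31 to 0.19 (limma adjusted p = 0.934). Its sign was positive under TPM scaling, after the length and GC correction and without Sham replicate 3. Cd59b averaged 2.01 ± 0.335 and 2.25 ± 0.287 FPKM, and Cd59a was 11.4 to 15.0 times Cd59b in every library.

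**Figure D3:**
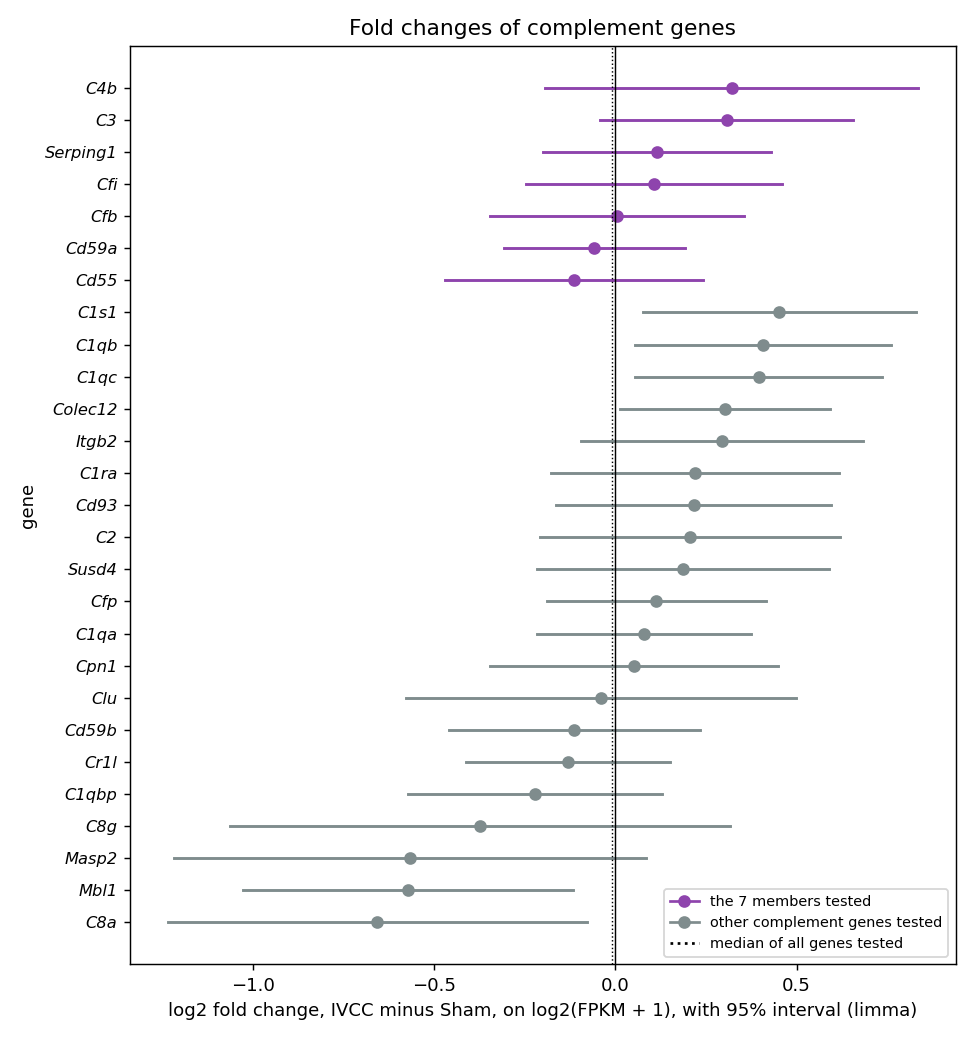
Log2 fold change, IVCC minus Sham, on the log2(FPKM + 1) scale with its 95% interval (limma, horizontal axis), for the 7 members tested (purple) and other complement genes tested (grey). The dotted line is the median of all genes tested, and all 7 members' intervals include 0.

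The remaining complement genes form a list of 50, of which 21 were tested, 25 averaged below 1 FPKM and 4 were listed at 0 in every library (Fcnb, Colec10, C8b and Vsig4). Of the 21, 0 passed at an adjusted p under 0.05 in limma. An unadjusted p under 0.05 was reached by 5 higher genes and 2 lower, against 1.70% and 1.87% of all genes tested. The groups did not overlap for 4 of the 21 with IVCC higher and 2 with IVCC lower, against 4.09% and 4.22%. The 13 with a fitted value above 0 and the 8 below gave a median log2 fold change of 0.11. The best expressed were the chaperone-like inhibitor Clu at 234.5, C1qbp at 150.0 and Cpn1, the catalytic chain of carboxypeptidase N that trims anaphylatoxins, at 55.7 FPKM on average. None of these 3 was separated between the groups. The other regulators near the members included Cr1l, the rodent membrane regulator Crry, at 36.5 ± 1.42 FPKM in IVCC and 40.2 ± 5.07 in Sham.

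The genes named next were picked by their unadjusted p or lack of overlap, so their values are a description. All 6 tested genes of classical initiation had a fitted value above 0. C1qb averaged 25.2 ± 3.38 FPKM in IVCC and 18.8 ± 2.92 in Sham, with overlap. C1qc averaged 16.4 ± 2.26 and 12.2 ± 1.61 FPKM. The remaining C1q subunit gene, C1qa, was not picked by that rule. It averaged 20.65 ± 2.255 FPKM in IVCC and 19.48 ± 1.92 in Sham, with overlap and a log2 fold change of 0.08 (limma adjusted p = 0.93). C1s1, the protease that cleaves C4 and C2, was listed at 6.74, 7.60 and 7.05 FPKM after IVCC, and the Sham libraries gave 5.77, 5.55 and 3.72 FPKM. Colec12, a scavenger receptor with a collagen-like domain, averaged 5.98 ± 0.535 and 4.66 ± 0.495 FPKM. C1qc, C1s1 and Colec12 had no overlap between the groups, with limma log2 fold changes of 0.40, 0.45 and 0.30 (adjusted p = 0.924 for each). The C1s1 value was 0.29 without Sham replicate 3, and that of C1qc was 0.21 without both libraries numbered 3. For Colec12 it was 0.18 after the length and GC correction. Other alternatives gave larger values. Under TPM scaling C1s1 was at 0.61 and Colec12 at 0.46, and C1qc was at 0.57 after the length and GC correction.

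The 2 lower genes were Mbl1 and C8a. Mbl1, a mannose-binding lectin of the lectin pathway, had 4.22, 2.77 and 4.54 FPKM after IVCC and, in Sham, 7.14, 4.82 and 6.57 FPKM. C8a, a chain of the membrane attack complex, had 3.85, 6.74 and 8.34 FPKM after IVCC and, in Sham, 8.40, 12.1 and 10.2 FPKM. Neither had overlap, and the log2 fold changes were -0.57 and -0.66 (limma adjusted p = 0.924 for both). Without IVCC replicate 1 the C8a value was -0.39, and without IVCC replicate 3 it was -0.86. C9, the pore-forming component, averaged 0.338 and 0.288 FPKM and the fifth component, Hc, was listed above 0 in only 1 library.

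C3ar1, the receptor of the C3 anaphylatoxin, fell below the filter. It was listed at 0.796, 0.799 and 0.741 FPKM in IVCC. In Sham it was listed at 0.312, 0.269 and 0.277 FPKM. The groups did not overlap, and the ratio of the means was 2.72. Among the 2472 genes under the filter with a value above 0 in every library, 8.37% were likewise separated with IVCC higher. In either direction 12.1% of them were separated, so most of these had IVCC higher. The values stand for nominally 27 to 28 reads per library in IVCC and 7 to 9 in Sham. With no filter on low values the log2 fold change was 0.47, SE 0.06 (limma unadjusted p = 0.0001788, adjusted p = 0.524 over 17572 genes). The other genes under the filter with no overlap were Vtn, lower at 0.0493 against 0.186 FPKM on average, and Csmd1, which was listed at 0 in all 3 Sham libraries. Vtn was listed at 0 in IVCC replicate 2, so the shares of those 2472 genes cover neither Vtn nor Csmd1.

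**Figure D4:**
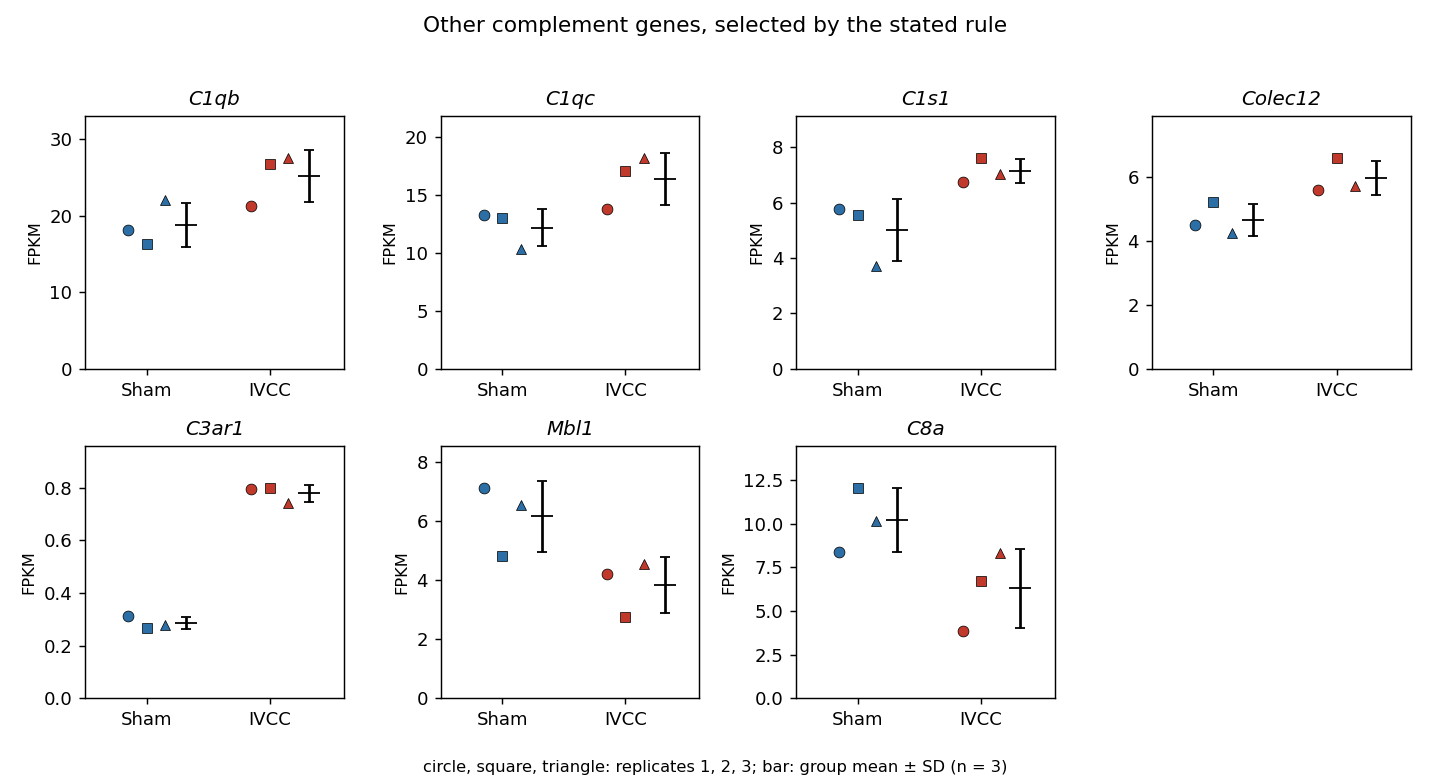
FPKM (vertical axis, linear from 0) of 7 other complement genes in Sham (blue) and IVCC (red); circles, squares and triangles are replicates 1, 2 and 3, and bars are group means ± SD (n = 3). C3ar1 lies between 0.741 and 0.799 FPKM in IVCC and between 0.269 and 0.312 in Sham, and only C1qb of these genes overlaps.

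Markers of cells that express complement genes are given next, and their part in the values above was not tested. No marker tested passed in limma, the smallest adjusted p being 0.905. Counts of separated markers stand beside the 4.09% of all genes tested, and the 8.37% of genes under the filter, that had all IVCC values higher. Of 8 macrophage markers, 7 had a higher mean in IVCC, and the groups did not overlap for Cd68, Lyz2, Mpeg1 and, under the filter, Mrc1. The 8 summed to 44.9 to 55.5 FPKM in IVCC and 36.4 to 40.9 in Sham. Lyz2 is the highest of that list, at 22.75 ± 3.84 FPKM in IVCC and 13.26 ± 0.332 in Sham. The exception was Csf1r, whose mean was lower in IVCC, at 11.97 ± 1.89 against 15.74 ± 1.96 FPKM, with overlap. Of 6 fibroblast markers, 5 were separated with IVCC higher, for a sum of 37.1 to 42.8 against 31.9 to 35.3 FPKM. The remaining one, Dcn, is the highest of that list, at 18.2 ± 2.55 FPKM in IVCC and 20.0 ± 0.555 in Sham, with overlap. Endothelial markers summed to 129 to 138 FPKM in IVCC and 111 to 125 in Sham. All 6 hepatocyte markers had a lower mean in IVCC, with overlap, at a sum of 165 to 314 against 215 to 436 FPKM; Ttr led that list at 238 FPKM, and Ahsg was listed at 0 in 5 of the 6 libraries. Of 8 neutrophil markers 7 were in the table, with Retnlg at 0 and a sum of 1.69 to 6.50 FPKM in IVCC and 2.72 to 4.50 in Sham. Lymphocyte markers summed to 3.50 to 5.04 and 3.53 to 4.68 FPKM. Urothelial markers summed to at most 1.29 FPKM in every library but Sham replicate 3, where they reached 7.96 FPKM.

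Across the 6 libraries, the tested genes whose profile lay closest to that of C3 were Lcp1 and Ceacam1, at a root mean square distance of 0.0421 and 0.0423 log2 units. The C3 profile itself departs from its mean by 0.180. For C4b the closest were Rbl1 and Arhgef12, for Cfi Lgmn and Mfsd9, and for Serping1 Cacfd1 and Ccdc160. Cfb lay close to Zkscan17. Cd55 lay closest to Ccdc88c and Ift88, and Cd59a to Srpk1 and Wdr24. All these distances were at most 0.0489 log2 units, and with 12090 genes and 6 libraries such close profiles are a description only.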

How the data were processed

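Per the labels' protocols, kidney RNA was isolated with TRIzol, the library kit was stranded and selected mRNA, and reads were single-end, 75 bases long. The values are FPKM as deposited by the authors, 1 column per library. The submitters' processing notes name Cufflinks 2.2.1, TopHat2 2.0.13, SAMtools 0.1.19, Bowtie2 2.2.3 and the mm10 build with no roles. What annotation was used and whether libraries were scaled to each other is not given in the sources used here.

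For the comparison, the 12090 genes averaging 1 FPKM or more were compared on log2(FPKM + 1) with limma 3.58.1 in R 4.3.3 (eBayes with a mean-variance trend, two-sided, Benjamini-Hochberg over all genes tested, threshold 0.05); 12256 fell below. The code was tested on simulated data. An exact permutation test of 3 against 3 cannot go below p = 0.1. Nominal reads assume a fragment of 200 bases, and 74.1% to 78.6% of low values per library were whole reads within 0.1, too few for a count test. Coordinates, transcripts and shared windows are from GENCODE M21 (GRCm38, the assembly of mm10).

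The members and gene lists were chosen with earlier results of these data known. All members are named; of the other complement genes, those with an unadjusted p under 0.05 or no overlap, the paralogs and the 3 with the highest mean; and for each member the 2 closest profiles. Values of 2 genes taken by it are left out here, although counts over the complement list include 1 of them. The alternatives were pseudocounts of 0.1 and 5, no filter or one at 5 FPKM, 3 scalings, eBayes without the trend or robust, a replicate block, and each library left out. Correcting for GC content and transcript length (a spline fit per library), the same with the block, and leaving out both libraries numbered 3 were added after seeing the data.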

Additional observations from a re-analysis of the deposited data

How the results depend on the processing

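Under all 19 alternatives 0 members passed the adjusted threshold. The count of all genes called, 0 in the reported fit, was 0 to 4 when 1 library was left out, 4 without both libraries numbered 3, and 1 with the length and GC correction plus the replicate block; the cause was not tested. Members with an unadjusted p under 0.05 numbered 0 to 1 when 1 library was left out. There was 1 with no filter, with eBayes without the trend and without both libraries numbered 3 (C3 each time). There was also 1 with the length and GC correction, with or without the block (Serping1). Of all genes, 1.79% to 8.52% had such a p with 1 library left out, 4.44% with no filter and 3.68% without the trend. The share was 8.7% without both libraries numbered 3. With the length and GC correction it was 5.65%, and 13.9% with the block added. Members without overlap, 1 in the reported fit, numbered 1 to 2 when 1 library was left out, beside 12.1% to 32.5% of all genes. There were 2 under TPM scaling (Cfi and Serping1, beside 7.68%) and 1 after quantile normalization (Cfb, beside 8.75%). Without both libraries numbered 3 there were 2 (C3 and Cfi), beside 40.7% of all genes. A filter at 5 FPKM, which removes C3, left 0, beside 7.98%. TPM scaling shifted the median log2 fold change of all genes to 0.147. Directions turned under it for Cd55 (0.0428) and Cd59a (0.114), both below that shift. They also turned for Cd59a (0.0446) and Cfb (-0.0209) with the length and GC correction, with or without the block. With 1 library left out the log2 fold change was -0.211 to 0.0390 for Cd55, -0.0944 to 0.00462 for Cd59a, -0.108 to 0.118 for Cfb and -0.0111 to 0.233 for Cfi. C3, C4b and Serping1 kept a fold above 0 under every alternative they could be tested in. C3 was at 0.11 with a pseudocount of 5 and 0.51 with one of 0.1, and at 0.21 to 0.44 in the other settings.

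With the replicate number as a block 0 genes and 0 members were called, and 1 member (C3) had no overlap, beside 8.31% of all genes. With it 0 members had an unadjusted p under 0.05. The count of all genes with one went from 431 (3.56%) to 2388 (19.8%). Same-numbered libraries correlated at -0.11, 0.34 and 0.32 in their deviations from the group means. Differently numbered libraries correlated at -0.371 to 0.0681. The labels name no pairing, so the reported fit has no block. Whether same-numbered libraries share an effect was not tested. Few reads stand behind C3, C4b, Cfi and C3ar1, and the part of depth in their spread was not tested.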

Other observations

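Interferons and the cytokines that signal through STAT3 are textbook inducers of complement genes. Of 9 interferon targets all had a higher mean in IVCC, and Irf1, Igtp, Irgm1, Cxcl9 and Cxcl10 did not overlap. Over all genes tested, 48.4% had a fitted value above 0 and 4.09% were separated with IVCC higher. The 9 targets summed to 86.7 to 143 FPKM in IVCC and 57.7 to 79.2 in Sham. Of 6 acute phase and STAT3 targets 4 had a higher mean and none was without overlap. The sum was 17.1 to 18.4 FPKM in IVCC and 13.8 to 16.8 in Sham. Stat3 itself led that list, at 12.3 FPKM on average over all libraries. The mean of Lcn2 was lower in IVCC, at 1.56 ± 1.35 against 2.2 ± 0.983 FPKM in Sham. Saa3, an acute phase gene, was listed at 0 in every library. None of these genes that were tested passed in limma (smallest adjusted p = 0.905). Their part in the values of the complement genes was not tested.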
